A study of Saccharomyces cerevisiae with 24 samples.

Results

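Of the 5211 genes in a table of read counts from budding yeast, 58 encode factors that process ribosomal RNA and assemble ribosomes, and all 58 are described here. They are a fixed list of systematic names, a rule that uses no measured value, though the list was chosen with earlier results of these data known. Every listed gene was found in the table with a count above 0 in each of the 24 libraries. By role, 7 are core proteins of small nucleolar ribonucleoproteins (snoRNPs), 6 belong to the UTP-A complex, 5 to UTP-B or UTP-C, and 16 are other small-subunit factors, while 16 are large-subunit assembly factors and 8 are helicases or GTPases of the large subunit. The study set a strain lacking ZUO1 (zuo1Δ), whose product is a J-domain protein of the ribosome-associated chaperone complex, beside wild type (WT), both of BY4741 background, in poly(A) mRNA sequencing and in ribosome profiling, which counts the mRNA fragments that ribosomes protect (footprints). Each assay had 6 groups of 2 biological replicates. These were zuo1Δ and WT cells treated for 30 min with 0.25 mM H2O2 at 30 °C, zuo1Δ and WT cells shifted to 37 °C for 45 min by adding an equal volume of medium at 44 °C, and unstressed zuo1Δ and WT cells. All cultures grew exponentially at 30 °C in synthetic complete medium with glucose to an OD600 of 0.6. The labels do not say which carried a selective marker, and cycloheximide, which stalls ribosomes, was in the lysis buffer of the footprint samples.

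Ribosome assembly begins in the nucleolus, where RNA polymerase I transcribes a long precursor and the U3 snoRNP with the UTP complexes folds its first part into the small-subunit processome. Box C/D and box H/ACA snoRNPs modify the RNA at many sites, methylating ribose or converting uridine to pseudouridine, and DEAD-box helicases, GTPases and scaffold proteins then mature the precursors of both subunits before export. In yeast the genes of these factors form a large co-regulated group, transcribed strongly in fast growth and turned down in most stresses.

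The mRNA libraries held 7810893 to 122213415 counts and the footprint libraries 1686930 to 15788345. ZUO1 had 0 counts in all 12 zuo1Δ libraries. The 50 most abundant genes took 19.0 to 33.0% of the counts in zuo1Δ mRNA libraries, against 27.2 to 61.7% in WT mRNA libraries, and 25.2 to 35.1% in footprint libraries of both genotypes. The labels were checked by the median log2 level of 14 H2O2 genes and of 15 heat shock genes against the mean unstressed library, and 5 stressed libraries stood no higher on the markers of their own label than the highest unstressed library of the assay. They were the zuo1Δ H2O2 replicate 2 and zuo1Δ heat replicate 1 of mRNA, the zuo1Δ H2O2 replicate 1 of footprints, and both zuo1Δ heat libraries of footprints. The mRNA library labelled zuo1Δ H2O2 replicate 2 stood at -0.31 on H2O2 markers and that labelled zuo1Δ heat replicate 1 at 1.95 on the same markers. The first 3, called the doubted libraries below, can be left out without emptying a group, and the counts and medians that rest on them are given with and without them. The same 2 mRNA libraries stood at 1.14 and 0.26 on heat markers. In WT mRNA, heat markers stood higher in the H2O2 libraries (1.51 and 1.35) than in the heat libraries (0.98 and 0.67). Those markers thus do not tell the 2 stresses apart in mRNA. If the 2 zuo1Δ libraries were exchanged, the zuo1Δ H2O2 and heat mRNA values below would each mix both stresses, which was not tested. Both zuo1Δ heat footprint libraries were needed for every heat comparison in zuo1Δ footprints.

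Levels below are in CPM, a gene's count for a fixed number of reads of its library after scaling by TMM factors, with replicate 1 before replicate 2. Differences are log2 fold changes ± SE from edgeR's quasi-likelihood test. A gene is said to have passed where the Benjamini-Hochberg adjusted p over all genes tested was under 0.05. Counts from fits that leave out a library stand mostly without the share of all genes in those fits. Such counts show how the calls move, not how the factors compare with other genes. The p-values measure the spread between 2 biological replicates per group, pooled over the 6 groups of an assay, and the labels describe no molecular identifiers. In such bulk samples, fewer cells that express a gene and less RNA per cell cannot be told apart.

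In unstressed WT footprints, ranked per gene length, 57 of the 58 factors lay above the median of all genes, at a median percentile of 73.0. The highest was NOP1 (YDL014W), the ribose methyltransferase of box C/D snoRNPs, at percentile 95.5, and the lowest was DBP7 (YKR024C), a DEAD-box helicase of the large subunit, at 38.8. In unstressed WT mRNA, ranked the same way, only 26 of the 58 lay above the median of all genes, and their median percentile was 48.5. The log2 ratio of footprint CPM to mRNA CPM had a median of 1.93 over the factors and 0.06 over all genes in unstressed WT. The factors' median ratio was 1.39 in zuo1Δ H2O2 cells and 1.30 in WT H2O2 cells, 1.28 in zuo1Δ heat cells and 1.88 in WT heat cells, and 1.25 in unstressed zuo1Δ cells, while over all genes it stayed between 0.06 and 0.36 in the 6 groups. The library-by-library plot shows each factor in each library, with a narrower spread among factors in footprints than in mRNA.

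**Figure D1:**
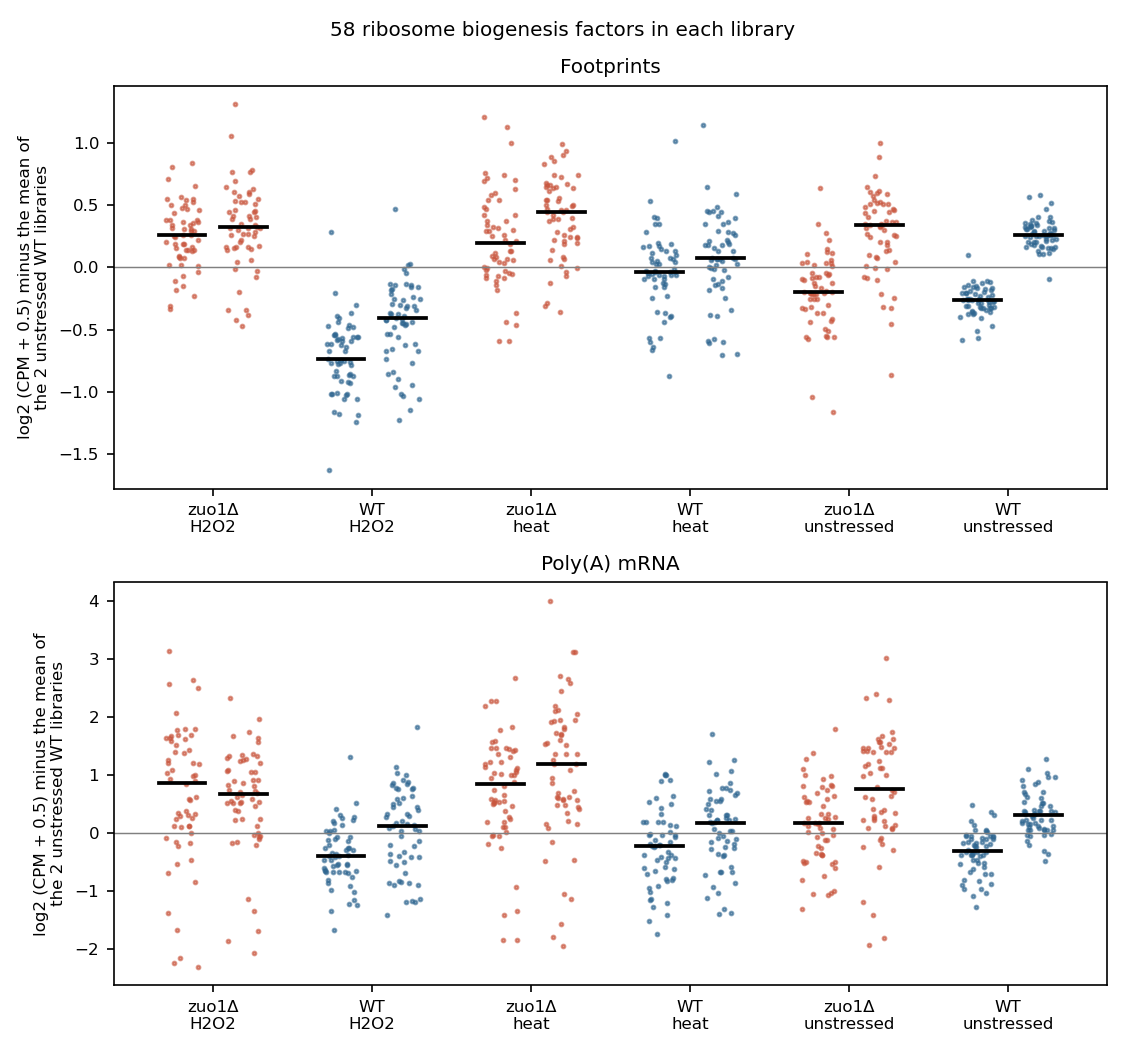
Log2 CPM of the 58 factors in each library, minus the mean of the 2 unstressed WT libraries of the same assay (y axis, log2 units), for footprints (top) and mRNA (bottom). Points are genes, bars are medians, and in each group replicate 1 is left of replicate 2. The medians of the WT H2O2 footprint libraries (-0.74 and -0.41) lie below those of all other footprint libraries, and both unstressed footprint groups show replicate 1 below replicate 2.

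The replicates differed in the same direction for most groups, as the factors' median was lower in replicate 1 than in replicate 2 in all 6 footprint groups and in 5 of the 6 mRNA groups, by 0.53 (log2) in unstressed WT footprints and by 0.62 in unstressed WT mRNA. In unstressed WT mRNA the gap was widest for long genes. The 5 factors of at least 3500 bases had a median gap of 1.92, against 0.44 for the other 53, and RRP5, for example, had 277 and 1619 CPM there. The scaling of libraries also matters for mRNA. In the contrast of zuo1Δ with WT averaged over conditions, the median of all mRNAs was 1.27 by library size alone and 0.01 with TMM factors, while that of all footprints was 0.19 and 0.02. Differences below are relative to the TMM scale.

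The median footprint difference of the factors between zuo1Δ and WT was 0.87 in H2O2, 0.31 in heat and 0.07 unstressed. In H2O2, 44 of the 58 factors rose in zuo1Δ relative to WT footprints and 0 fell, against 9.34% of all genes tested that rose. The median of all genes was -0.00. All 58 differences were above 0, and in 56 of 58 both zuo1Δ libraries lay above both WT libraries, which held for 32.1% of all genes. The 5 largest rises among those that passed were in FYV7, RRP8, NUG1, UTP20 and RRP1.

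FYV7 (YLR068W), a small protein of pre-rRNA processing for the small subunit and the shortest of these genes (456 bases), had 44.1 and 44.5 CPM in zuo1Δ H2O2 libraries and 18.4 and 15.9 CPM in WT H2O2 libraries, a difference of 1.39 ± 0.23 (adjusted p = 0.00317) by edgeR. RRP8 (YDR083W), a base methyltransferase of large-subunit rRNA, had 122 and 131 CPM in zuo1Δ and 42.3 and 53.7 CPM in WT, a difference of 1.38 ± 0.24 (adjusted p = 0.00485) by edgeR. NUG1 (YER006W), a GTPase of large-subunit assembly and export, had 405 and 427 CPM in zuo1Δ and 139 and 191 CPM in WT, a difference of 1.33 ± 0.22 (adjusted p = 0.00382) by edgeR. In all 3 genes the zuo1Δ libraries were alike and lay more than 2-fold above the higher WT library, a gap wider than that between replicates of either genotype. UTP20 (YBL004W), a large component of the small-subunit processome, had 459 and 380.1 CPM in zuo1Δ and 164 and 192 CPM in WT (1.23 ± 0.19, adjusted p = 0.00256 by edgeR). RRP1 (YDR087C), a large-subunit factor, had 115 and 124 CPM in zuo1Δ and 40.8 and 60.9 CPM in WT (1.21 ± 0.25, adjusted p = 0.00837 by edgeR). Again neither gene overlapped between genotypes.

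The roles are given in turn. Of the snoRNP core 5 of 7 rose (median 0.78), led by GAR1 (0.99 ± 0.18), a box H/ACA protein, while NOP58 of box C/D did not pass (0.50 ± 0.17). Other small-subunit factors rose in 14 of 16 (median 0.96), TSR1 (0.56 ± 0.22), a GTPase-like factor of late small-subunit maturation, and the nucleolin-like NSR1 (0.87 ± 0.34) being those that did not pass. Large-subunit assembly factors rose in 12 of 16 (median 0.96), among them NOP7 (1.20 ± 0.25) and ERB1 (1.10 ± 0.23), partners of YTM1 (0.64 ± 0.24, not passed) in a large-subunit complex, and MAK21 (1.07 ± 0.20) of the Noc complexes. Helicases and GTPases rose in 7 of 8 (median 1.00), with DBP7 (0.69 ± 0.27) short of the threshold. The smallest difference in the large-subunit lists was that of RRP15 (0.17 ± 0.25), which is needed for large-subunit pre-rRNA processing.

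Within the UTP complexes, which bind the precursor RNA first, 3 of 6 UTP-A factors rose (median 0.69) and 3 of 5 of UTP-B with UTP-C (median 0.67). The 6 UTP-A subunits lay close together, between UTP15 (0.59 ± 0.19) and UTP9 (0.83 ± 0.20), and UTP8 (0.71 ± 0.22) was the other that passed. UTP10 (0.69 ± 0.24), a large scaffold subunit, UTP4 (0.68 ± 0.23) and UTP5 (0.69 ± 0.28) had differences of the same size with wider errors and did not pass. The UTP-B subunits UTP21 (0.71 ± 0.23), UTP6 (0.71 ± 0.18) and UTP13 (0.67 ± 0.21) rose. The UTP-C members UTP22 (0.05 ± 0.18) and RRP7 (0.45 ± 0.16), which bind each other, did not pass, and UTP22, at 282 and 281 CPM in zuo1Δ and 241 and 301 CPM in WT, was the smallest difference of all 58. NOP8, CIC1, YTM1 and RRP15 of large-subunit assembly, DBP7, NSR1, TSR1, RRP9 and NOP58 complete the 14 that did not pass. Without the doubted zuo1Δ H2O2 replicate 1 the factors that rose were 4 of 7 in the snoRNP core, 13 of 16 other small-subunit, 9 of 16 large-subunit assembly and 5 of 8 helicases and GTPases, but 1 of 6 in UTP-A and 1 of 5 in UTP-B with UTP-C, with role medians between 0.71 and 1.12.

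The zuo1Δ H2O2 footprint replicate 1 carried no rise in H2O2 markers (-0.35), whereas replicate 2 had a rise (2.32) close to those of the WT H2O2 libraries (2.35 and 2.50). In replicate 1, 56 factors lay above both WT H2O2 libraries, and in replicate 2, 57 did. Of all genes, 44.0% and 38.8% did. That order cannot tell whether replicate 1 was treated. In WT, 42 factors had both H2O2 footprint libraries below both unstressed ones, as did 27.4% of all genes. An untreated library could thus also lie above the H2O2 libraries. Without the 3 doubted libraries, 33 factors rose and 0 fell, against 4.94% of all genes, and the median was 0.94. Leaving out either WT H2O2 library lowered the count further, while the median was 0.77 without WT replicate 1 and 1.00 without WT replicate 2. Whether the share of all genes fell likewise is not given here.

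**Figure D2:**
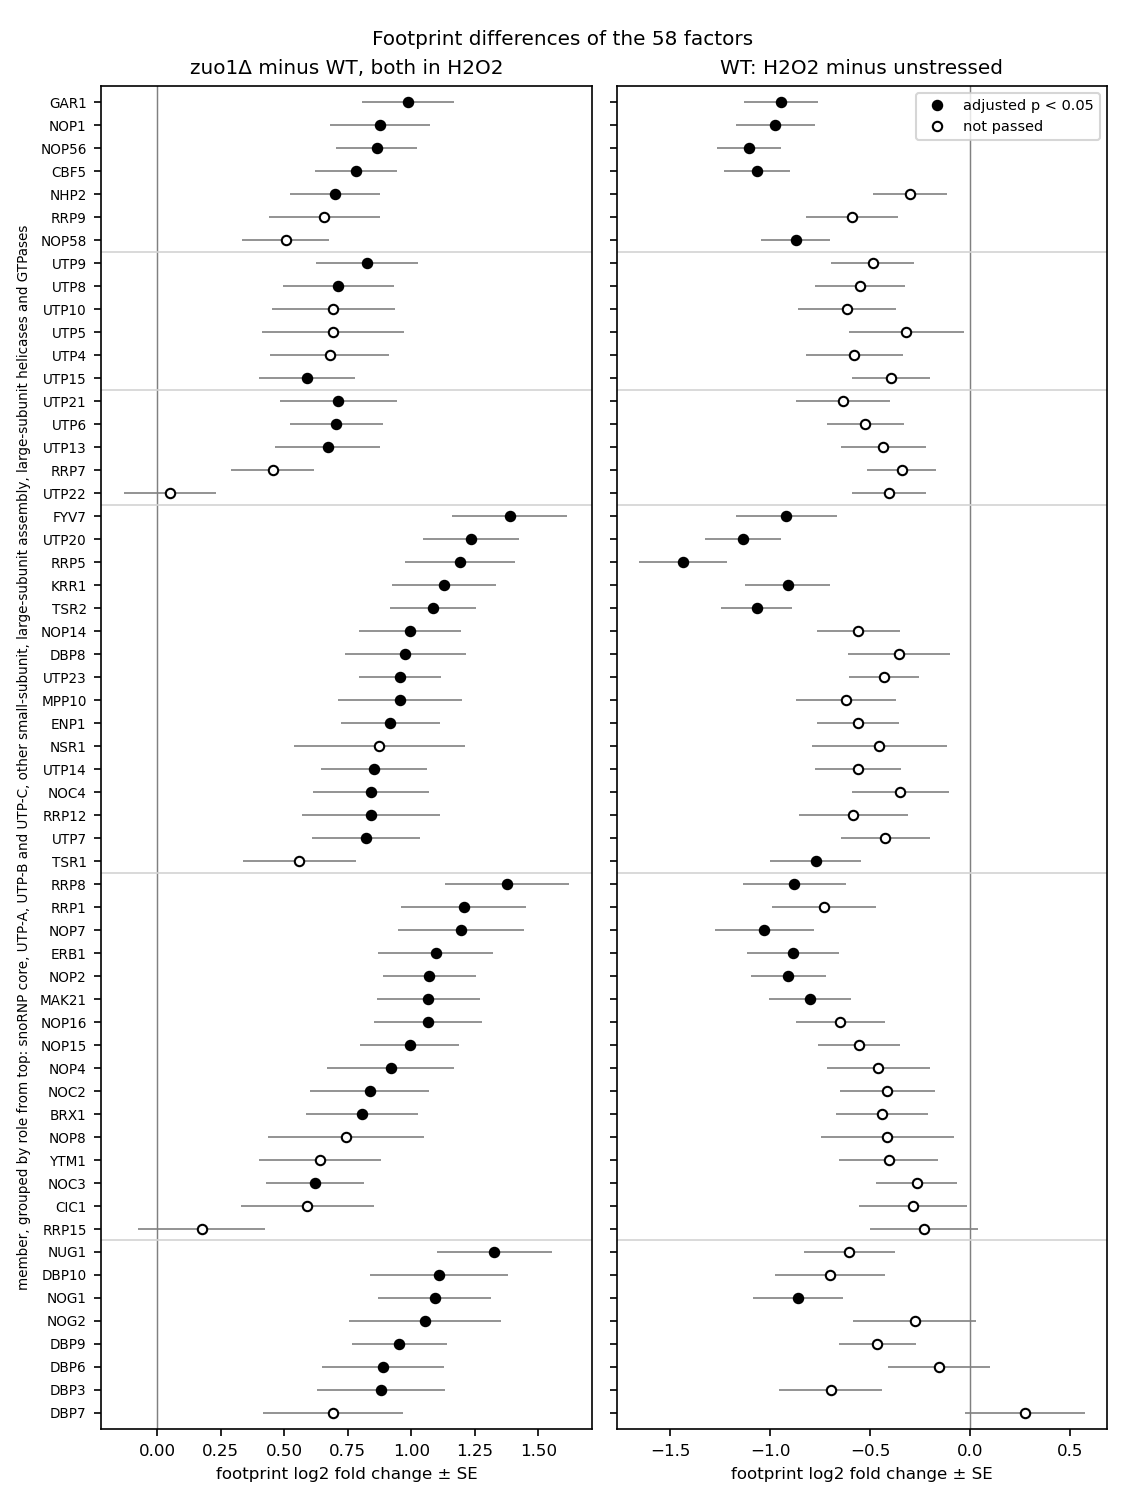
Footprint log2 fold change ± SE of each factor (x axis), grouped by role from top to bottom, for zuo1Δ minus WT in H2O2 (left) and for H2O2 minus unstressed in WT (right); filled points passed an adjusted p of 0.05 over all genes. All 58 lie to the right of 0 on the left and 57 lie to the left of 0 on the right, and the panels share the WT H2O2 libraries.

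The WT response to H2O2 ran the other way, and it uses the same WT H2O2 libraries as the comparison above. In WT footprints 17 factors fell after H2O2 and 0 rose, against 8.79% of all genes that fell, with a median of -0.56 (0.05 over all genes) and 57 of 58 below 0. RRP5 (YMR229C), a large RNA-binding protein needed for the processing of both subunits' RNA, fell most, with 324 and 428 CPM in H2O2 and 838 and 1200.3 CPM unstressed (-1.44 ± 0.22, adjusted p = 0.00234 by edgeR). UTP20 had 164 and 192 CPM in H2O2 and 337 and 447 CPM unstressed (-1.14 ± 0.19, adjusted p = 0.00344 by edgeR). In both genes the higher H2O2 library lay far below the lower unstressed one. NOP56 (YLR197W), a box C/D core protein, had 487 and 539 CPM in H2O2 and 1020.2 and 1189.7 CPM unstressed (-1.11 ± 0.16, adjusted p = 0.00209 by edgeR). CBF5 (YLR175W), the pseudouridine synthase of box H/ACA snoRNPs, had 391 and 391 CPM in H2O2 and 745 and 891 CPM unstressed (-1.07 ± 0.16, adjusted p = 0.00234 by edgeR). TSR2 (YLR435W), an escort of the small-subunit protein Rps26, had 47.7 and 41.0 CPM in H2O2 and 80.4 and 104 CPM unstressed (-1.07 ± 0.18, adjusted p = 0.00341 by edgeR). No H2O2 library overlapped an unstressed one in these 5 genes.

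The WT fall is given by role here, and whether the roles differ from each other was not tested. The snoRNP core fell in 5 of 7 (median -0.95), namely NOP56, CBF5, NOP1 (-0.97 ± 0.20), GAR1 (-0.95 ± 0.18) and NOP58 (-0.87 ± 0.17), but NHP2 (-0.30 ± 0.18), another H/ACA protein, and RRP9 (-0.59 ± 0.23), a U3-specific protein, did not pass. None of the 6 UTP-A (median -0.52) or 5 UTP-B and UTP-C factors (median -0.43) passed, though all 11 were below 0. Other small-subunit factors fell in 6 of 16 (median -0.57), which besides RRP5, UTP20 and TSR2 were FYV7 (-0.92 ± 0.25), KRR1 (-0.91 ± 0.21) and TSR1 (-0.77 ± 0.23). Large-subunit assembly factors fell in 5 of 16 (median -0.51), among them NOP7 (-1.03 ± 0.25) and the rRNA methyltransferase NOP2 (-0.91 ± 0.19). Of the helicases and GTPases 1 of 8 fell, NOG1 (-0.86 ± 0.22), and DBP7 was the single factor above 0 (0.27 ± 0.30). The count was 5 without unstressed WT replicate 2, 6 without WT H2O2 replicate 1, 9 without WT H2O2 replicate 2 and 33 without unstressed WT replicate 1, so the unstressed libraries as well as the H2O2 libraries set how many factors passed.

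In zuo1Δ footprints, 0 of the 58 factors passed for H2O2 against unstressed, and so did 0% of all genes by edgeR (6 factors and 8.77% of all genes at an unadjusted p under 0.05, and 0 factors and 0.533% with DESeq2). The median was 0.17 and 48 of 58 differences were above 0. Without the 3 doubted libraries, which leaves only replicate 2 in H2O2, 1 factor rose, TSR2 at 1.10 ± 0.20 (adjusted p = 0.0103) by edgeR, where 2.35% of all genes rose and 1.28% fell, and the median was 0.27. With both libraries TSR2 stood at 1.05 ± 0.17 (adjusted p = 0.181), FYV7 at 0.93 ± 0.21 (adjusted p = 0.391) and UTP23, a small-subunit factor, at 0.47 ± 0.16 (adjusted p = 0.454), each by edgeR. In footprints, leaving out the doubted libraries is the same fit as leaving out zuo1Δ H2O2 replicate 1 alone. The other doubted libraries are of mRNA.

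The difference between the genotypes' H2O2 responses was tested directly, again with the same WT H2O2 libraries. It was above 0 in all 58 factors (median 0.83, and -0.04 over all genes), and 6 passed in that direction, against 0.889% of all genes. TSR2 led at 2.11 ± 0.24 (adjusted p = 0.00587), with 92.5 and 94.1 CPM in zuo1Δ H2O2 libraries and 40.6 and 50.0 CPM in unstressed zuo1Δ libraries, a change opposite to that in WT above. FYV7 followed at 1.85 ± 0.33 (adjusted p = 0.0332), with 44.1 and 44.5 CPM in zuo1Δ H2O2 libraries and 20.7 and 26.1 CPM in unstressed zuo1Δ libraries, against 18.4 and 15.9 CPM in WT H2O2 libraries and 24.7 and 39.2 CPM in unstressed WT libraries. These 2 genes were thus higher in H2O2 than unstressed in zuo1Δ and lower in WT, with no overlap of libraries in either genotype.

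In RRP5, CBF5 and NOP56 the H2O2 and unstressed zuo1Δ libraries overlapped, and in NOP2 they did not. RRP5 had 929.6 and 792 CPM in zuo1Δ H2O2 libraries and 745 and 1013 CPM in unstressed zuo1Δ libraries, with a difference between responses of 1.41 ± 0.31 (adjusted p = 0.0499) by edgeR. NOP2 (YNL061W) had 317 and 330.3 CPM in zuo1Δ H2O2 libraries and 233 and 286 CPM in unstressed zuo1Δ libraries, against 138 and 169 CPM in WT H2O2 and 256 and 322 CPM in unstressed WT (1.23 ± 0.26, adjusted p = 0.0499 by edgeR). CBF5 had 719 and 626 CPM in zuo1Δ H2O2 libraries and 557 and 652 CPM in unstressed zuo1Δ libraries (1.22 ± 0.23, adjusted p = 0.0347 by edgeR). NOP56 had 1074 and 793 CPM in zuo1Δ H2O2 libraries and 963 and 1026 CPM in unstressed zuo1Δ libraries, a difference between responses of 1.02 ± 0.22 (adjusted p = 0.0499) by edgeR. Only TSR2 passed without the 3 doubted libraries (2.20 ± 0.27, adjusted p = 0.00815), where the median of the 58 was 0.90 and 0.336% of all genes were higher. FYV7 then stood at 1.93 ± 0.38 (adjusted p = 0.0567) and CBF5 at 1.18 ± 0.23 (adjusted p = 0.0518) by edgeR. With DESeq2 the count was 21, and with edgeR it moved with single libraries, to 0 without WT H2O2 replicate 2, 1 without unstressed WT replicate 2, WT H2O2 replicate 1, either WT heat library, unstressed zuo1Δ replicate 1 or zuo1Δ H2O2 replicate 1, 14 without zuo1Δ H2O2 replicate 2, 16 without unstressed WT replicate 1 and 17 without unstressed zuo1Δ replicate 2.

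**Figure D3:**
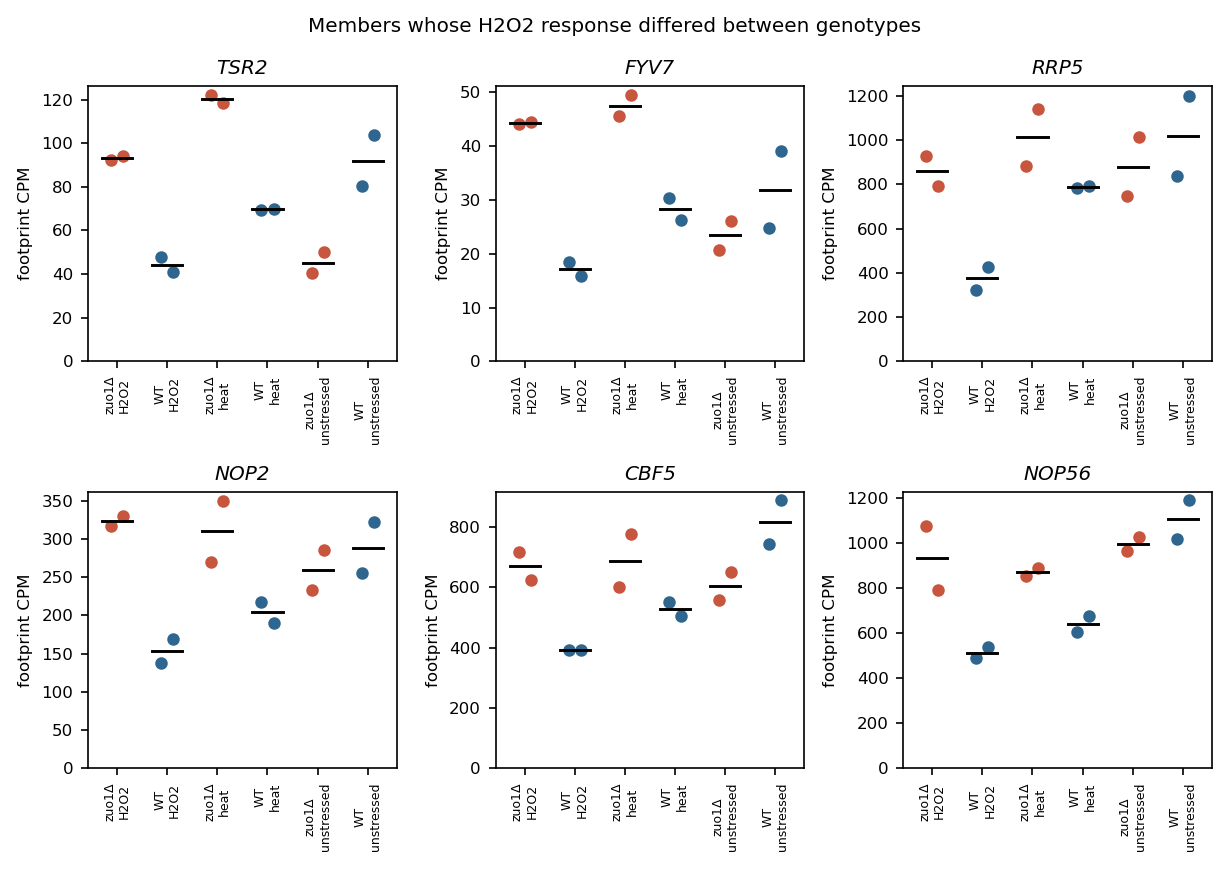
Footprint CPM (y axis, from 0) of the 6 factors whose H2O2 response differed between genotypes, by group; points are libraries (replicate 1 left) and bars are means of 2. TSR2 and FYV7 are lower in unstressed zuo1Δ than in stressed zuo1Δ libraries, and all 6 have their lowest group mean in WT H2O2 cells.

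After heat, 3 of the 58 factors (5.17%) fell in WT footprints against unstressed and 0 rose. That share is near the background, as 6.28% of all genes fell. The factors' median was 0.04 (0.07 over all genes). That median changed sign with DESeq2 (-0.01) and without unstressed WT replicate 1 (-0.24), and was 0.28 without unstressed WT replicate 2. All 3 factors that fell were snoRNP core proteins. NOP56 had 603 and 677 CPM in heat and 1020.2 and 1189.7 CPM unstressed (-0.79 ± 0.16, adjusted p = 0.00951 by edgeR). GAR1 (YHR089C) had 156 and 159 CPM in heat and 202 and 293 CPM unstressed (-0.65 ± 0.18, adjusted p = 0.0456 by edgeR). CBF5 had 550.1 and 504 CPM in heat and 745 and 891 CPM unstressed (-0.63 ± 0.16, adjusted p = 0.0296 by edgeR). The libraries did not overlap in any of these genes, and all 7 snoRNP core factors were below 0 (median -0.61), while the medians of the other 5 roles lay between 0.02 and 0.14. The count was 0 without either WT heat library, 1 without either WT H2O2 library or unstressed WT replicate 2 and 6 without either zuo1Δ H2O2 library.

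Set side by side in WT, H2O2 and heat differed in all 58 factors in the same direction. This comparison, the WT fall after H2O2, zuo1Δ against WT in H2O2 and the difference of H2O2 responses share the WT H2O2 footprint libraries. They are thus not separate observations. H2O2 was lower than heat with a median of -0.58 (0.01 over all genes), and 13 factors passed as lower, against 6.54% of all genes. UTP20 had 164 and 192 CPM in H2O2 and 369 and 405 CPM in heat (-1.12 ± 0.19, adjusted p = 0.00467 by edgeR), and ERB1 (YMR049C) had 141 and 209 CPM in H2O2 and 346 and 385 CPM in heat (-1.05 ± 0.23, adjusted p = 0.0117 by edgeR). In both, each H2O2 library lay well below each heat library. RRP5 had 324 and 428 CPM in H2O2 and 782 and 793 CPM in heat (-1.06 ± 0.22), RRP1 had 40.8 and 60.9 CPM in H2O2 and 87.5 and 111 CPM in heat (-0.94 ± 0.25), and MAK21 had 174 and 206 CPM in H2O2 and 357 and 374 CPM in heat (-0.94 ± 0.20). The passing factors held 8 of 16 other small-subunit, 4 of 16 large-subunit assembly and 1 of 6 UTP-A genes, and none of the snoRNP core (median -0.35), which was below 0 on the median in both stresses against unstressed. In 54 of 58 factors both H2O2 libraries lay below both heat libraries, against 31.5% of all genes. The count was 0 without WT H2O2 replicate 1 or WT heat replicate 2, 3 without WT heat replicate 1, 4 without WT H2O2 replicate 2, 22 without unstressed zuo1Δ replicate 2 and 23 without either unstressed WT library.

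In heat, 2 factors rose in zuo1Δ relative to WT footprints and 0 fell, against 2.86% of all genes that rose, a share near the background. TSR2 had 122 and 119 CPM in zuo1Δ and 69.6 and 69.8 CPM in WT (0.79 ± 0.17, adjusted p = 0.0183 by edgeR), and GAR1 had 234 and 288 CPM in zuo1Δ and 156 and 159 CPM in WT (0.72 ± 0.18, adjusted p = 0.0363 by edgeR). Neither gene overlapped between genotypes, and NUG1 at 0.80 ± 0.22 (adjusted p = 0.0532) missed the threshold. The median of the 58 was 0.31 (0.01 over all genes), and it was 0.39 in the snoRNP core and 0.44 in the helicases and GTPases but -0.01 in UTP-A. Within zuo1Δ, 2 factors rose in heat and 0 fell, against 5.61% of all genes that rose. TSR2 was at 1.42 ± 0.17 (adjusted p = 0.000883) and FYV7, with 45.5 and 49.5 CPM in heat and 20.7 and 26.1 CPM unstressed, at 1.03 ± 0.22 (adjusted p = 0.015), both by edgeR. Both zuo1Δ heat footprint libraries were among those without a rise in heat markers (0.21 and 0.04, against 0.44 in the highest unstressed library), and their part in these results was not tested. The first count was 0 without either WT heat library or zuo1Δ heat replicate 2, 1 without either WT H2O2 library or zuo1Δ heat replicate 1 and 4 without either zuo1Δ H2O2 library, and the second was 1 without unstressed zuo1Δ replicate 1 or either zuo1Δ heat library and 4 without either unstressed WT library or unstressed zuo1Δ replicate 2.

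Unstressed, 1 factor passed between zuo1Δ and WT footprints, TSR2, which was lower in zuo1Δ (-1.03 ± 0.17, adjusted p = 0.00625 by edgeR), where 3.04% of all genes were lower. It had 40.6 and 50.0 CPM in zuo1Δ and 80.4 and 104 CPM in WT, with no overlap. The median of the 58 was 0.07 (0.03 over all genes), and 24 were below 0. Of the 58, 49 overlapped between genotypes, a larger share than the 50.5% of all genes that did. DBP6, a helicase of early large-subunit assembly, stood at 0.79 ± 0.25 (adjusted p = 0.0986) and NUG1 at 0.62 ± 0.23 (adjusted p = 0.149) by edgeR. TSR2 thus had the lowest footprints of its 6 groups in WT H2O2 and unstressed zuo1Δ cells and the highest in zuo1Δ heat cells. Its response to heat also differed between genotypes, at 1.82 ± 0.24 (adjusted p = 0.00914) by edgeR, the single factor to pass where 0.612% of all genes were higher, with FYV7 (1.22 ± 0.33, adjusted p = 0.118) and CBF5 (0.82 ± 0.23, adjusted p = 0.122) next. For TSR2, this difference, that between the H2O2 responses and the unstressed difference all use the same unstressed libraries, so they are not separate observations. The unstressed count was 0 without unstressed WT replicate 2 or unstressed zuo1Δ replicate 1, and the heat count was 0 without unstressed WT replicate 2 or WT heat replicate 2. TSR2 lies on chromosome XII, bases 1006378 to 1006995 of R64, and no other gene of the annotation overlaps it.

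Averaged over the 3 conditions, 32 factors rose in zuo1Δ footprints and 0 fell, against 12.5% of all genes that rose, with a median of 0.44 (0.02 over all genes). Each condition had equal weight, and H2O2 had the largest median of the 3, as given above. In single conditions 44 factors rose in H2O2 (9.34% of all genes), 2 rose in heat (2.86%) and 1 was lower unstressed (3.04%). The average thus does not show a difference of the same size in each condition. NUG1 (0.91 ± 0.13, adjusted p = 0.000544) and DBP6 (0.80 ± 0.14, adjusted p = 0.00229) led, then the GTPase NOG2 (0.61 ± 0.17, adjusted p = 0.0226), the helicase DBP9 (0.60 ± 0.11, adjusted p = 0.00247) and NOP16 (0.59 ± 0.13, adjusted p = 0.0059), all large-subunit factors, by edgeR. NUG1 was higher in both zuo1Δ libraries than in both WT libraries in each condition, with 402 and 492 CPM in zuo1Δ heat libraries and 255 and 259 CPM in WT heat libraries, and 315 and 458 CPM in unstressed zuo1Δ libraries and 206 and 297 CPM in unstressed WT libraries. DBP6 (YNR038W) had 154 and 139.6 CPM in zuo1Δ H2O2 libraries and 69.7 and 87.8 CPM in WT H2O2 libraries, 144 and 164 CPM in zuo1Δ heat libraries and 72.3 and 113 CPM in WT heat libraries, and 134 and 172 CPM in unstressed zuo1Δ libraries and 68.4 and 108 CPM in unstressed WT libraries. By role, 13 of 16 large-subunit assembly factors, 6 of 8 helicases and GTPases, 10 of 16 other small-subunit factors and 3 of 7 snoRNP core factors rose, whereas 0 of 6 UTP-A and 0 of 5 UTP-B and UTP-C factors passed. Whether the roles differ from each other was not tested. The median was 0.44 without the 3 doubted libraries, and fewer factors passed without WT H2O2 replicate 1 or unstressed zuo1Δ replicate 2.

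Averaged over conditions, 30 factors rose in zuo1Δ mRNA relative to WT mRNA and 4 fell, against 24.2% and 26.4% of all genes, with a median of 0.78 (0.01 over all genes). Large-subunit assembly factors rose in 14 of 16 (median 1.28), all but RRP1 (0.09 ± 0.22) and YTM1 (0.45 ± 0.23), and helicases and GTPases in 5 of 8 (median 0.97). Other small-subunit factors rose in 7 of 16 (median 0.58), UTP-A in 2 of 6 (median 0.38) and UTP-B with UTP-C in 1 of 5 (median 0.47). The snoRNP core had 1 factor that rose, RRP9 (0.73 ± 0.22), and 4 that fell (median -0.74). Without the 3 doubted libraries the median was 0.86.

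The 2 largest mRNA rises were in genes with few counts in WT. NOP16 (YER002W), a large-subunit factor, had 14.3 and 7.85 CPM in zuo1Δ H2O2 libraries and 0.768 and 2.11 CPM in WT H2O2 libraries, 10.2 and 26.3 CPM in zuo1Δ heat libraries and 0.22 and 3.42 CPM in WT heat libraries, and 5.28 and 13.0 CPM in unstressed zuo1Δ libraries and 0.608 and 2.03 CPM in unstressed WT libraries. The mean difference was 3.16 ± 0.55 (adjusted p = 0.00135) by edgeR, and no condition overlapped. RRP15 (YPR143W) had 3.66 and 7.0 CPM in zuo1Δ heat libraries and 0.367 and 0.155 CPM in WT heat libraries, the lowest WT value resting on 1 read, with a mean difference over conditions of 3.09 ± 0.52 (adjusted p = 0.00127) by edgeR. FYV7 had 0.155 to 0.941 CPM in WT libraries, the lowest also 1 read (1.72 ± 0.41, adjusted p = 0.00428 by edgeR). DBP9 and NOP4, at higher WT levels than these, rose too. DBP9 (YLR276C) had 108 and 145 CPM in zuo1Δ heat libraries and 15.6 and 32.3 CPM in WT heat libraries (1.99 ± 0.36, adjusted p = 0.0015 over conditions by edgeR). NOP4 (YPL043W), an RNA-binding large-subunit factor, had 17.1 and 35.1 CPM in unstressed zuo1Δ libraries and 5.98 and 7.6 CPM in unstressed WT libraries (1.81 ± 0.28, adjusted p = 0.00119 over conditions by edgeR).

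Over the 58 factors the per-length mRNA level in unstressed WT and the mean mRNA difference had Pearson's r of -0.74 and Spearman's rho of -0.63, a description only, since both use the unstressed WT libraries. The snoRNP core proteins that fell in mRNA were CBF5, NOP56, NOP58 and NOP1. CBF5 had 84.7 and 100.0 CPM in zuo1Δ H2O2 libraries and 386 and 261 CPM in WT H2O2 libraries, 117 and 142 CPM in zuo1Δ heat libraries and 643 and 384 CPM in WT heat libraries, and 362 and 109 CPM in unstressed zuo1Δ libraries and 588 and 302 CPM in unstressed WT libraries. Its genotypes overlapped only unstressed, and the mean difference was -1.57 ± 0.32 (adjusted p = 0.00224) by edgeR. NOP56 had 106 and 137 CPM in zuo1Δ H2O2 libraries and 359.9 and 223 CPM in WT H2O2 libraries (-1.17 ± 0.26, adjusted p = 0.0032 over conditions by edgeR). NOP58 (YOR310C) was at -0.77 ± 0.21 (adjusted p = 0.00793) and NOP1 at -0.74 ± 0.28 (adjusted p = 0.0405) over conditions, by edgeR. The direction of NOP56, NOP58 and NOP1 rests on the scale, since by library size alone they stood at 0.12, 0.50 and 0.44, below the 1.27 that all genes then showed. In footprints the same 4 genes did not fall over conditions: NOP56 rose (0.38 ± 0.09), and CBF5 (0.24 ± 0.09), NOP58 (0.09 ± 0.10) and NOP1 (0.28 ± 0.11) did not pass. Of all 58 factors, 20 rose in both readouts, 10 rose in mRNA without passing in footprints, and 11 rose in footprints without passing in mRNA. Of all genes tested in both, 5.19% rose in both, 18.3% rose in mRNA alone and 5.75% in footprints alone.

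Single conditions gave fewer mRNA calls. In heat 25 factors rose in zuo1Δ relative to WT and 1 fell, against 16.3% and 21% of all genes, with a median of 1.12. RRP15 (4.09 ± 1.01, adjusted p = 0.0111), UTP6 of UTP-B (2.43 ± 0.61, adjusted p = 0.0116) and CBF5 (-1.98 ± 0.56, adjusted p = 0.0168) were among them by edgeR. That count was 0 without WT heat replicate 1 or zuo1Δ heat replicate 2, and 0 also without the 3 doubted libraries, where 0 genes of the whole table passed and the median was 1.25. In H2O2, 0 factors passed by edgeR, as did 0.276% of all genes, and the median was 0.82. At an unadjusted p under 0.05 there were 29 factors and 27.7% of all genes, and with DESeq2 12 factors and 12.6% of all genes. Both zuo1Δ libraries lay above both WT libraries in 45 of 58 factors and in 33.4% of all genes. Without the doubted libraries 0 factors and 0 genes passed by edgeR, and the median was 0.99. The smallest adjusted p were those of NOP15 (1.58 ± 0.43, adjusted p = 0.0895), NOC3 (1.57 ± 0.45, adjusted p = 0.0981) and ERB1 (1.47 ± 0.44, adjusted p = 0.0998), large-subunit factors, by edgeR. The H2O2 count was 10 without either unstressed zuo1Δ library. Unstressed, 0 factors passed by edgeR, again with 0.276% of all genes, with a median of 0.46. At an unadjusted p under 0.05 there were 22 factors and 24% of all genes, and with DESeq2 9 factors and 12% of all genes. NOP4 (1.94 ± 0.49, adjusted p = 0.0622), UTP7 (1.23 ± 0.35, adjusted p = 0.0794) and NOP58 (-1.20 ± 0.36, adjusted p = 0.084) came closest by edgeR, and the count was 12 without unstressed zuo1Δ replicate 1.

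Stress itself moved few mRNAs past the threshold, among all genes as among these factors. In WT mRNA 1 factor rose after H2O2 and 0 fell, against 1.44% of all genes that rose. It was UTP7 (YER082C), a processome component, with 33.7 and 48.9 CPM in H2O2 and 14.7 and 12.1 CPM unstressed, which did not overlap (1.62 ± 0.36, adjusted p = 0.0436 by edgeR). Its WT footprints stood at -0.42 ± 0.22 (adjusted p = 0.211) by edgeR. GAR1 (-1.21 ± 0.37) and NOP1 (-1.33 ± 0.49) had the next smallest adjusted p. The UTP7 call was lost without the 3 doubted libraries, and the count was 0 without either unstressed WT library, either WT H2O2 library, either zuo1Δ H2O2 library or either zuo1Δ heat library. After heat, 0 factors passed in WT mRNA by edgeR, against 0.69% of all genes (9 factors and 25.6% of all genes at an unadjusted p under 0.05, and 5 factors and 12.7% with DESeq2), and the count was 1 without either unstressed zuo1Δ library and 7 without unstressed WT replicate 1. UTP7 (1.41 ± 0.36, adjusted p = 0.0677), the helicase DBP8 (0.90 ± 0.28, adjusted p = 0.0955) and UTP10 (-1.78 ± 0.62, adjusted p = 0.109) came closest by edgeR. In zuo1Δ mRNA 0 factors passed after H2O2, against 0.0394% of all genes, and 0 passed after heat, against 0%, by edgeR (3 factors each at an unadjusted p under 0.05, where 9.49% and 10.2% of all genes were, and 1 factor each with DESeq2, where 1.72% and 1.3% of all genes passed). The medians were -0.19 and -0.04 in WT for H2O2 and heat, and 0.24 and 0.49 in zuo1Δ, where without the doubted libraries they were 0.22 and 0.59 and 0 factors passed.

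**Figure D4:**
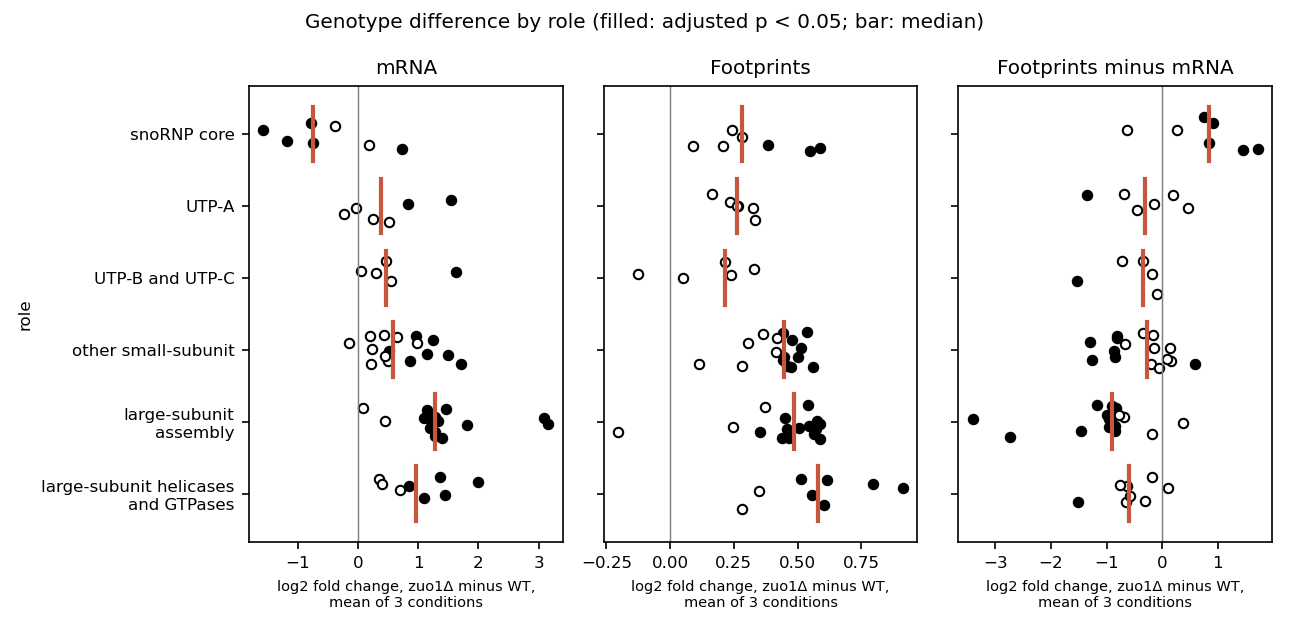
Log2 fold change of zuo1Δ minus WT averaged over the 3 conditions (x axes, which differ in range) for each factor by role (y axis), in mRNA (left), footprints (middle) and footprints minus mRNA (right); filled points passed an adjusted p of 0.05 over all genes and bars are role medians. The snoRNP core has a median of -0.74 in mRNA and 0.28 in footprints, and large-subunit assembly factors have 1.28 and 0.49.

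Footprint and mRNA differences were compared in 1 model of all 24 libraries. Averaged over conditions, the footprint difference of zuo1Δ and WT was below the mRNA difference in 21 factors and above it in 6, against 21.5% and 17.1% of all genes, with a median of -0.63 (-0.09 over all genes). These shares of the 58 are 36.2% and 10.3%. Of the 21, 12 were large-subunit assembly factors, led by RRP15 (-3.41 ± 0.55, adjusted p = 0.00167) and NOP16 (-2.74 ± 0.58, adjusted p = 0.00303), with UTP6 (-1.53 ± 0.38, adjusted p = 0.00645), DBP9 (-1.50 ± 0.40, adjusted p = 0.00873) and NOP4 (-1.46 ± 0.35, adjusted p = 0.00541) next, by edgeR. Of the 6, 5 were snoRNP core proteins, namely CBF5 (1.72 ± 0.35, adjusted p = 0.00279), NOP56 (1.46 ± 0.28, adjusted p = 0.00236), NOP1 (0.92 ± 0.28), GAR1 (0.85 ± 0.21) and NOP58 (0.76 ± 0.21) by edgeR, and the other was the helicase DBP8 (0.59 ± 0.21). By library size alone GAR1 (-0.042) and NOP58 (-0.23) changed sign, while the median of all genes moved to -1.06. Without the 3 doubted libraries 22 factors passed in all.

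The same test was run for zuo1Δ and WT unstressed and for each stress in WT. Between the unstressed genotypes 0 passed by edgeR, against 0.0394% of all genes (21 factors and 17.8% of all genes at an unadjusted p under 0.05, and 3 factors and 2.62% with DESeq2), with TSR2 at -2.02 ± 0.42 (adjusted p = 0.098) the closest. The count was 1 without either mRNA WT H2O2 library and 12 without mRNA unstressed zuo1Δ replicate 1. For H2O2 against unstressed in WT, 0 passed, against 0% of all genes (10 factors and 9.84% of all genes at an unadjusted p under 0.05, and 1 factor and 0.394% with DESeq2), with a median of -0.54, and for heat in WT 0 passed, against 0.0986% (5 factors and 11.7% of all genes at an unadjusted p under 0.05, and 0 factors and 0.355% with DESeq2). UTP7 was closest in the H2O2 test at -2.15 ± 0.44 (adjusted p = 0.129) and UTP10 in the heat test at 1.74 ± 0.66 (adjusted p = 0.36), by edgeR. The heat count was 5 without mRNA unstressed WT replicate 1.

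Other genes of the pathway, from lists chosen with earlier results of these data known, are given beside the 58. Of 98 further assembly factors, 74 rose in zuo1Δ relative to WT H2O2 footprints and 0 fell (median 0.88), where 9.34% of all genes rose and 9.68% fell, with DBP2 at 1.62 ± 0.44, CGR1 at 1.56 ± 0.35 and ESF1 at 1.39 ± 0.36 among the largest. Of 19 subunits of RNA polymerases I and III, 13 rose there (median 0.72), including RPA190 at 1.11 ± 0.18, the largest subunit of polymerase I. In WT footprints 20 of the 98 factors fell after H2O2, with MDN1, the AAA ATPase of large-subunit maturation, at -1.60 ± 0.21, and so did 9 of the 19 polymerase subunits, with RPA190 at -1.28 ± 0.18, where 8.79% of all genes fell. Of 136 genes of cytosolic ribosomal proteins, 93 fell in WT H2O2 footprints (median -0.71) and 100 fell in WT heat footprints (median -0.84), where 6.28% of all genes fell. In zuo1Δ relative to WT H2O2 footprints 19 of those 136 rose and 3 fell (median 0.14), and unstressed 2 rose and 35 fell (median -0.39), where 1.78% and 3.04% of all genes did. Partners of the deleted gene's product did not pass in zuo1Δ relative to WT footprints in any single condition, with SSZ1 at 0.38 ± 0.15, SSB1 at 0.16 ± 0.17, SSB2 at 0.36 ± 0.15 and the related J-domain gene JJJ1 at 0.50 ± 0.27 in H2O2. Averaged over conditions, SSZ1 alone of these 4 rose in footprints (0.25 ± 0.08), against 12.5% of all genes. In mRNA SSZ1 (-0.96 ± 0.26), SSB1 (-1.97 ± 0.36) and SSB2 (-1.82 ± 0.36) fell over conditions, against 26.4% of all genes. JJJ1 rose there (0.69 ± 0.26), against 24.2%. Footprints minus mRNA passed as higher in SSZ1 (1.11 ± 0.25), SSB1 (1.91 ± 0.34) and SSB2 (1.82 ± 0.33), against 17.1% of all genes.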

How the data were processed

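Poly(A) mRNA and ribosome footprints were each sequenced from 12 cultures, 2 replicates in each of 6 groups. The authors deposited whole-number read counts per gene, made with cutadapt, Bowtie2, HISAT2 and SAMtools on build R64, per the submitters' processing notes, which give no versions. The counting tool and its settings were not given in the sources used here. All 5211 entries name a gene, and 5198 matched RefSeq's R64 annotation. Counts were tested with edgeR 4.0.16 (TMM, filterByExpr with a minimum count of 10 and total of 15, quasi-likelihood F test) on all 12 libraries of an assay, or on all 24 for the footprint difference minus the mRNA difference. Genes at 0 in every WT library (87) or in every zuo1Δ library (54) were left out before that filter, which left 5070. The filter then left 5064 genes in footprints and 5070 in mRNA, including all 58 factors. Shares of all genes thus do not cover genes counted in only 1 genotype. P-values were adjusted by Benjamini-Hochberg over all genes tested, and the SE is the log2 fold change divided by the square root of F. The minimum count kept a gene if it was reached in enough libraries of 1 group. DESeq2 1.42.0, other scaling, no filter, other sets of libraries and a replicate block were tried as alternatives. The scripts were tested on simulated counts. Library totals ran from 1686930 to 122213415 counts, and more counts give smaller counting error. Up to 5 passed factors with the largest rise and fall were named per comparison, or the 3 with the smallest adjusted p where fewer than 3 passed. The members and lists were chosen with earlier results of these data known. Promoter and protein sequences were not analysed here. Of NOG2, the intron holds SNR191, and no other factor overlaps an annotated gene.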

Additional observations from a re-analysis of the deposited data

Results flagged for a closer look

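In 7 cases the response of a factor's footprints to stress differed between zuo1Δ and WT when the difference itself was tested as an interaction term in edgeR's quasi-likelihood fit. For H2O2 the difference, zuo1Δ response minus WT response on the log2 scale, was 2.11 for TSR2, 1.85 for FYV7, 1.41 for RRP5, 1.23 for NOP2, 1.22 for CBF5 and 1.02 for NOP56. For heat it was 1.82 for TSR2, which uses the same unstressed libraries as its H2O2 difference. With 2 replicates per group, a single library departing from its group was not assessed by a formal test. The zuo1Δ H2O2 footprint replicate 1 and both zuo1Δ heat footprint libraries, which enter these differences, did not stand above unstressed libraries on the markers of their label, and without that H2O2 library TSR2 alone passed, at 2.20.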

How the results depend on the processing

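Counts of the 58 factors that passed are given per alternative, in the order footprints, mRNA, then footprints minus mRNA. They stand without the share of all genes in each alternative. They therefore show how the calls move, not how the factors compare with other genes. Over all alternatives 362 counts stayed within 1.5 times the reported one and 120 did not, and of single named values 1787 kept their call, 140 lost it, 76 gained it and 6 changed sign.

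Scaled by library size alone, zuo1Δ against WT footprints gave 3 unstressed, 7 in heat and 51 over conditions, WT H2O2 11, zuo1Δ heat 4 and the difference of H2O2 responses 3. In mRNA zuo1Δ against WT gave 42 unstressed, 52 in heat and 54 over conditions, and WT H2O2 8. On that scale the median of all mRNAs over conditions also moved up in zuo1Δ, as given above. The zuo1Δ counts thus cannot be read as particular to the factors. Footprints minus mRNA gave 22 unstressed and 47 over conditions. The changes of sign were all in this setting: in zuo1Δ against WT mRNA, NOP58 stood at 0.27 unstressed, and over conditions NOP56 stood at 0.12, NOP58 at 0.50 and NOP1 at 0.44, while in footprints minus mRNA GAR1 stood at -0.042 and NOP58 at -0.23.

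With DESeq2, zuo1Δ against WT footprints gave 5 in heat, WT H2O2 28, WT heat 6, zuo1Δ heat 4, the differences of responses 21 for H2O2 and 2 for heat, and H2O2 against heat in WT 22. In mRNA zuo1Δ against WT gave 9 unstressed and 12 in H2O2, WT H2O2 5, WT heat 5, zuo1Δ H2O2 1 and zuo1Δ heat 1. Footprints minus mRNA gave 3 unstressed and 1 for WT H2O2. With only the groups compared in the fit, footprints gave 4 for zuo1Δ against WT in heat, 1 for the difference of H2O2 responses and 46 for H2O2 against heat in WT, and mRNA gave 24 for zuo1Δ against WT in H2O2 and 2 for WT heat. Without the 3 doubted libraries, footprints gave 4 for zuo1Δ against WT in heat, 6 for WT heat, 1 for zuo1Δ H2O2 and 1 for the difference of H2O2 responses, and mRNA gave 0 for zuo1Δ against WT in heat and 0 for WT H2O2.

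With the replicate number as a block, footprints gave 3 unstressed and 7 in heat for zuo1Δ against WT, 34 for WT H2O2, 6 for WT heat, 9 for zuo1Δ heat, 21 for the difference of H2O2 responses and 31 for H2O2 against heat in WT. In mRNA the block gave 7 unstressed and 17 in H2O2 for zuo1Δ against WT and 1 for WT heat, and in footprints minus mRNA 1 unstressed. Deviations of same-numbered libraries correlated at -0.07 to 0.43 in footprints (8 of 15 pairs of groups over 0.1) and at -0.31 to 0.83 in mRNA (11 of 15), highest between unstressed WT and zuo1Δ, and the numbers were not treated as pairing.

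Leaving out each library in turn, zuo1Δ against WT footprints gave 0 to 1 unstressed, 5 to 49 in H2O2, 0 to 4 in heat and 21 to 44 over conditions. WT H2O2 gave 5 to 33, WT heat 0 to 6, zuo1Δ H2O2 0 to 1, zuo1Δ heat 1 to 4, the differences of responses 0 to 17 for H2O2 and 0 to 1 for heat, and H2O2 against heat in WT 0 to 23. In mRNA zuo1Δ against WT gave 0 to 12 unstressed, 0 to 10 in H2O2 and 0 to 34 in heat, WT H2O2 0 to 1 and WT heat 0 to 7. Footprints minus mRNA gave 0 to 12 unstressed and 0 to 5 for WT heat. The cause of these shifts was not tested, apart from the smaller number of libraries. With 2 replicates a group, a library that stands alone is assumed to vary like the other groups, and the lowest WT mRNA values rest on 1 read, so a difference there is limited by counting error.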
